A study of Homo sapiens with 60 samples.

Results

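The mucin family was followed here as 10 genes in HT29, a long-established line from a human colorectal adenocarcinoma. The members were found by gene symbol among the 60675 genes of the count table, and comprised 3 secreted mucins (MUC2, MUC5AC and MUC5B) and 7 membrane mucins (MUC1, MUC3A, MUC4, MUC12, MUC13, MUC17 and MUC20). All 10 were present, and all 10 passed the filter on low counts that left 16767 genes for testing. RNA was sequenced from 60 libraries in 21 groups, each collected after 24 h. Wortmannin and LY294002, inhibitors of phosphoinositide 3-kinase (PI3K), were each given at 10 µM in 3 libraries. The other treatments were water extracts of 6 plant or fungal drugs: Paeoniae Radix, hereafter Paeoniae; Angelicae Gigantis Radix, hereafter Angelicae; Panax Ginseng, shortened to Ginseng; Glycyrrhizae Radix (licorice), shortened to Glycyrrhizae; Atractylodis Rhizoma, called Atractylodis; and Poria Cocos, called Poria. Each extract was given at 20, 100 and 500 µg/mL, with 3 libraries per dose, except 2 per dose for Paeoniae. The vehicle group of 3 libraries received 0.1% DMSO per the sample labels, although the text of the series gives 2%. All groups are the same line, maintained in DMEM with serum, and each extract is a whole mixture whose composition is not given in the sources used here. Nothing states that replicates came from separate cultures, so p-values measure only the spread between these libraries, which may be technical.

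Library totals ran between 20431980 and 35477712 expected counts. Levels are given as CPM (a gene's count relative to the library total) scaled by trimmed mean of M-values (TMM), and changes as log2 fold changes ± SE from edgeR's quasi-likelihood test, two-sided, with Benjamini-Hochberg adjustment over the 16767 genes. A mucin is said to have changed where that adjusted p was under 0.05. The SE is the size of the log2 fold change divided by the square root of the test's F statistic. For MUC1, which had few counts, this SE is smaller than the adjusted p beside it implies. The ± of MUC1 therefore understates its error, and the adjusted p is the value to read. Statements that the libraries of groups did not overlap only describe the values and add no support to a call. The share of all tested genes without overlap is not given. The sample codes begin with a number, 1 in the vehicle and inhibitor libraries. It is 2 in those of Atractylodis and Poria, 3 in those of Ginseng and Glycyrrhizae, and 4 in those of Paeoniae and Angelicae. What the number stands for is not stated, and the titles of all libraries read BatchA. The sample labels name DMSO for vehicle only, so they do not show whether the inhibitor or extract groups received it. In every comparison of an extract with vehicle, the treatment, the code number and any difference in solvent cannot be told apart. For an inhibitor against vehicle, the treatment and any difference in solvent cannot be told apart. A comparison of 500 with 20 µg/mL stays within 1 number. Of 11 colon epithelial markers, 10 averaged over 1 CPM, and the 11 together summed to at least 12030 CPM in every group. Markers of fibroblasts, leukocytes, endothelium and airway or gastric epithelium each summed to no more than 5.255 CPM in any group. In each of these lists 1 gene averaged over 1 CPM.

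Mucins are very large glycoproteins whose serine- and threonine-rich tandem repeats carry dense O-linked sugar chains. Secreted mucins polymerise into the mucus gel, which in the colon is built mainly on MUC2 from goblet cells. Membrane mucins stay anchored in the apical surface of epithelial cells, where they form the glycocalyx and, in several cases, signal through a cytoplasmic tail. In bulk RNA, fewer mucin-making cells and less mucin RNA per cell cannot be told apart.

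By GENCODE 29 on GRCh38, 6 of the members lie in 2 runs of neighbours. MUC2 (chromosome 11, 1074875 to 1110511), MUC5AC (1157953 to 1201138) and MUC5B (1223066 to 1262172) follow each other on the plus strand. MUC3A (chromosome 7, 100949555 to 100968346), MUC12 (100969623 to 101018949) and MUC17 (101020072 to 101058745) form another run on the plus strand. On chromosome 3, MUC20 (195720882 to 195741123, plus strand) and MUC4 (195746765 to 195812277, minus strand) are neighbours, and MUC13 stands apart (124905442 to 124953819, minus strand). MUC1 is on chromosome 1 (155185824 to 155192916, minus strand).

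Promoter windows are shown for MUC2, MUC13 and MUC17, chosen after their values were seen, because these members changed in 2 or more comparisons and their windows hold a match for an intestinal factor. Each is the 250 bases before the RefSeq start on GRCh38.p14, written 5′ to 3′ on the gene's strand, with the matched motif in capitals: chr11:1074624-1074873 (plus) for MUC2, chr3:124934752-124935001 (minus) for MUC13 and chr7:101019831-101020080 (plus) for MUC17.
MUC2: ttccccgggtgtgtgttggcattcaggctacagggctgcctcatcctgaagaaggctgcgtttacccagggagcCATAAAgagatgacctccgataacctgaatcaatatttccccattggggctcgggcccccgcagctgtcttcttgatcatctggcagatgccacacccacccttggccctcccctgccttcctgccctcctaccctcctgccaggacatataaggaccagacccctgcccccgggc
MUC13: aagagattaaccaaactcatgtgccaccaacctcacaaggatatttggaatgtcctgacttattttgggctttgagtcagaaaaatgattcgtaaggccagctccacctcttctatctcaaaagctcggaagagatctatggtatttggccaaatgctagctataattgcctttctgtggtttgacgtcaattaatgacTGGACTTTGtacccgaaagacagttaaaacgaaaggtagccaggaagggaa
MUC17: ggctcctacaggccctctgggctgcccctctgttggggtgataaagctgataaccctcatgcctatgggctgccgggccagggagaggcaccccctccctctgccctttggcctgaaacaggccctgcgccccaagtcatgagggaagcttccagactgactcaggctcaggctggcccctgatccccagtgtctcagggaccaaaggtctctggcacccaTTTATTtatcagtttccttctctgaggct
The capitals mark a CDX-type match in MUC2 and MUC17 and an HNF4-type match in MUC13. CDX2 and HNF4A are transcription factors of the intestinal epithelium. The MUC2 match begins 176 bases before the start, the MUC17 match 29 bases and the MUC13 match 51 bases. Motifs were searched on both strands as TTTATG or TTTATT for CDX, GTAAACA for forkhead factors, AGATAA for GATA, CAAAGTCCA for HNF4, TGACNNNGC for the antioxidant response element, and GGGCGG for SP1, and a motif each was searched for HNF1 and NF-κB, given here by name. Each of these 3 windows held 1 match and no other motif searched; the windows of MUC1, MUC3A and MUC4 held SP1 matches and that of MUC12 none. Over the 35116 windows of the same length in the table, 22.55% held a CDX match, 2.98% a forkhead, 9.17% a GATA, 0.0228% an HNF1, 0.325% an HNF4, 10.9% an antioxidant response element, 0.527% an NF-κB and 42.6% an SP1 match, and a match is a description of letters, not of binding. Windows were found for 7 of the 10 members; MUC5AC, MUC5B and MUC20 had none in the table.

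MUC5AC and MUC13 were the most abundant mucin transcripts by CPM, and 3 members had few counts. MUC5AC, typical of gastric and airway surface mucus, averaged 160.0 CPM over the 60 libraries. MUC2 averaged 17.2 CPM, and MUC5B, the main gel former of airway and salivary mucus, 0.741 CPM. Among the membrane mucins, MUC13, a glycoprotein of the colonic apical surface, averaged 139 CPM and MUC20, a small mucin reported to bind the receptor MET, 66.2 CPM. MUC3A (23.9 CPM), MUC17 (9.91 CPM) and MUC12 (8.62 CPM), neighbours that contribute to the intestinal glycocalyx, were intermediate. MUC1, a signalling mucin of many epithelia, averaged 1.08 CPM, and MUC4, a ligand-like partner of ERBB2, 0.496 CPM. Counts per library were only 8 to 33 for MUC5B, 17 to 41 for MUC1 and 6 to 21 for MUC4. The changes of MUC5B and MUC4 carry the largest printed SEs, and the SE of MUC1 understates its error.

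Per kilobase of annotated exon the order was different. MUC13 led with a level of 39.7 CPM per kb, followed by MUC20 with 15.6, MUC5AC with 9.17, MUC3A with 2.10 and MUC2 with 1.36 CPM per kb. MUC17 (0.68), MUC12 (0.503), MUC1 (0.229), MUC5B (0.0399) and MUC4 (0.0233 CPM per kb) were lower. Some counts were shared among similar genes by the authors' counting: 100% of the MUC20 counts were not whole numbers, as were 55.0% of those of MUC17, 41.7% of MUC12, 20.0% of MUC5B and 6.67% of MUC3A, while the other 5 members had whole counts throughout. MUC20 shares sequence with the pseudogene MUC20P1 (27.4 CPM, all counts not whole) and overlaps the transcript MUC20-OT1 (19.8 CPM), and MUC12 overlaps the antisense gene MUC12-AS1 (1.70 CPM), so values of MUC20, MUC12 and MUC17 are less certain.

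**Figure D1:**
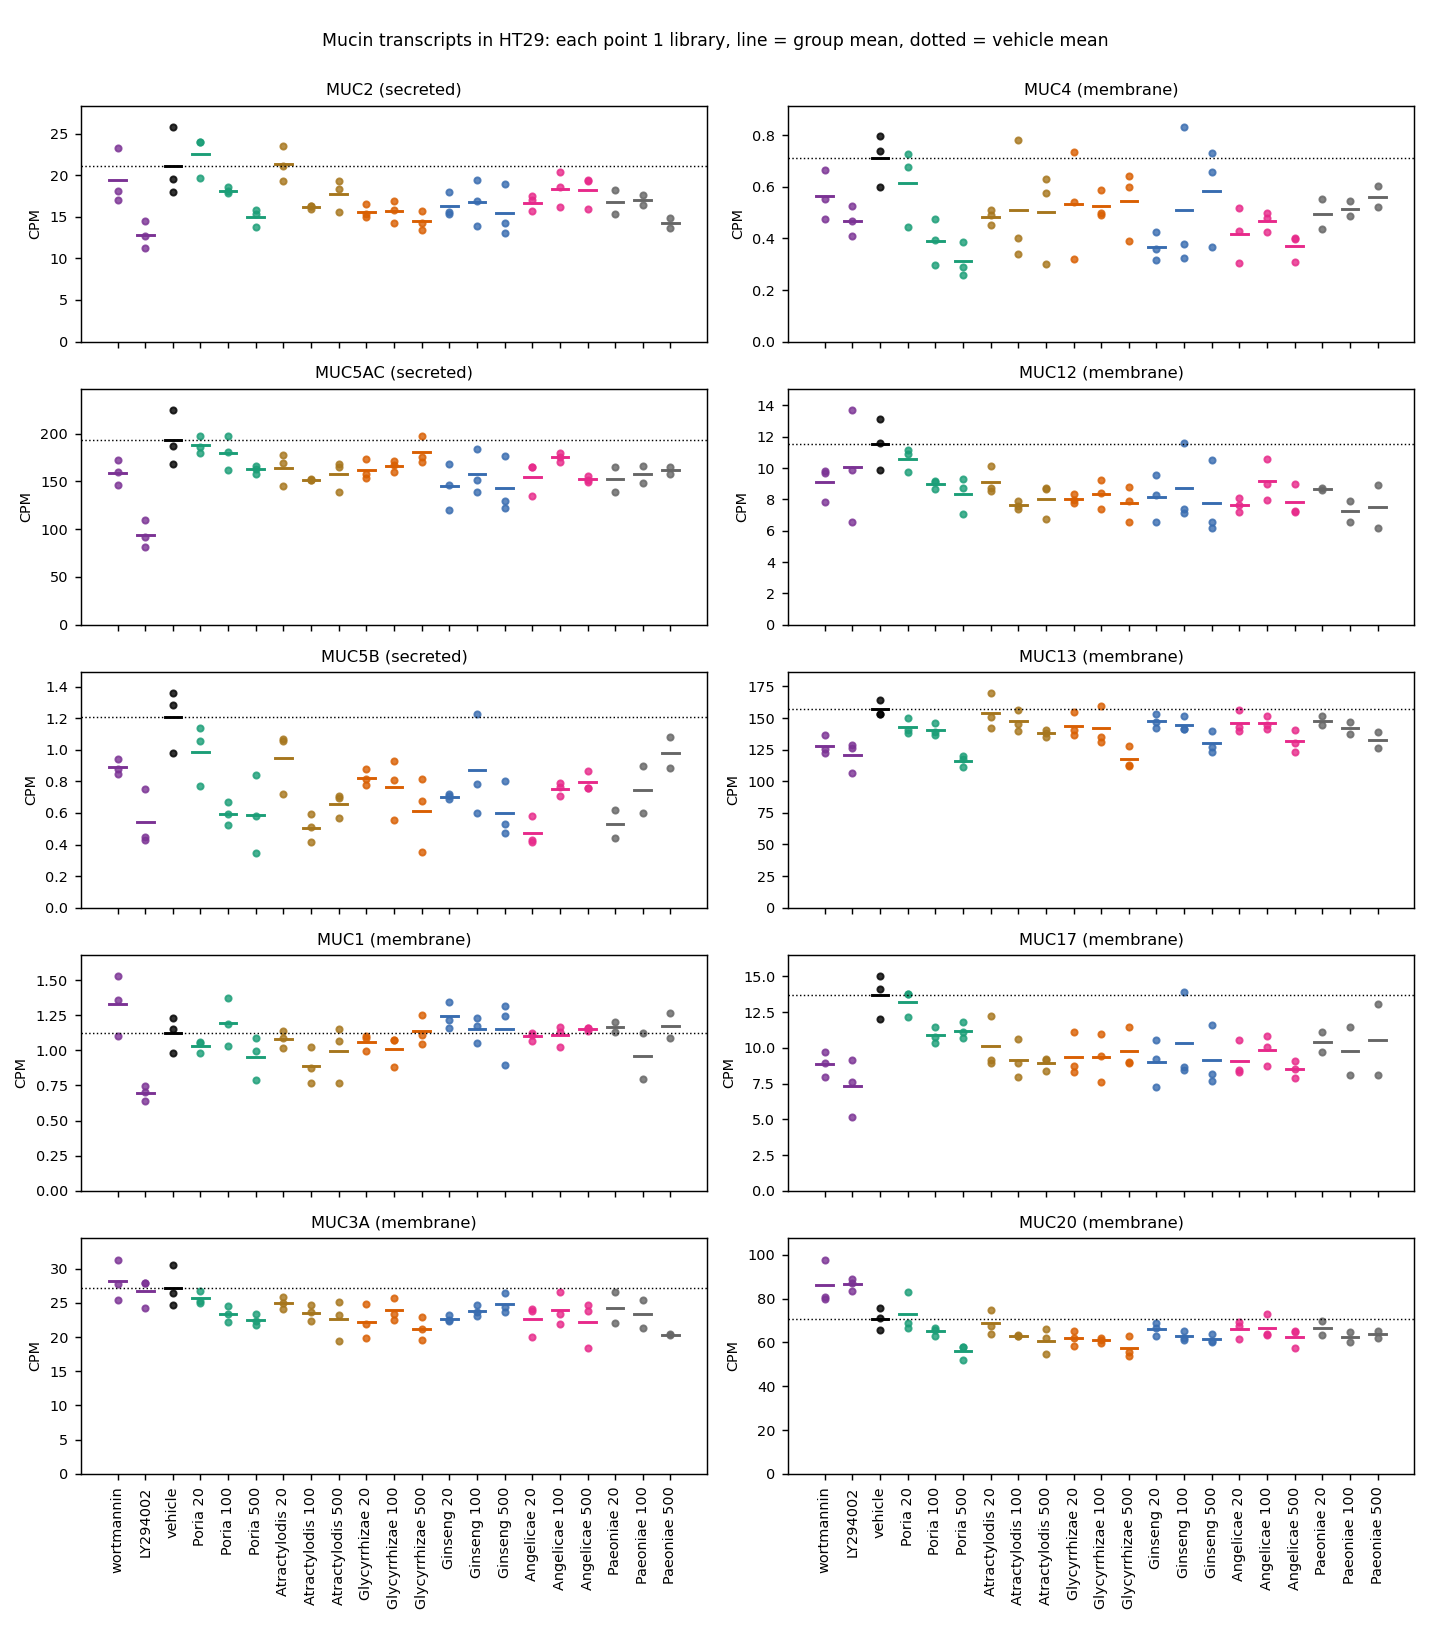
TMM-scaled CPM of each mucin in every library (points) and group mean (line), with both inhibitors left of vehicle and extract doses in µg/mL; the dotted line is the vehicle mean. MUC5AC under LY294002 (81.2 to 109 CPM) lies below the libraries of every other group, and vehicle has the highest mean for 6 of the 10 members.

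The vehicle group stood at the top of the range for most mucins. Its mean was the highest of the 21 group means for MUC5AC, MUC5B, MUC4, MUC12, MUC13 and MUC17, which is 6 of 10 members, while vehicle was highest for 6.87% of all 16767 tested genes. For MUC5AC, MUC5B, MUC3A, MUC4, MUC12, MUC13 and MUC17 the means of all 18 extract groups were below the vehicle mean, a pattern held by 2020 of all 16767 tested genes. MUC2, with 16 extract means below vehicle, peaked in Poria 20 (22.5 CPM), MUC20, with 17 below, peaked in LY294002 (86.5 CPM), and MUC1, with 10 below, peaked in wortmannin (1.33 CPM). Neighbouring groups in these orders were rarely separate. Among the 20 neighbouring pairs of each member, the libraries overlapped in every pair for 7 members, and 1 pair was separate for each of MUC5AC (LY294002 under Ginseng 500), MUC1 (LY294002 under Atractylodis 100) and MUC17 (Poria 500 under Poria 20).

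The median log2 fold change of the 10 members against vehicle was below 0 in all 20 treatments, between -0.645 for LY294002 and -0.101 for Poria 20, while the median of all tested genes stayed between -0.00934 and 0.00701. All 20 comparisons share the same 3 vehicle libraries. Vehicle library 3 was the highest of the trio for 7 members (25.8 CPM of MUC2 against 18.01 and 19.6 in libraries 1 and 2). Without it, the medians lay between -0.537 and -0.00544. They lay between -0.744 and -0.15 without vehicle library 1, and between -0.592 and -0.0825 without vehicle library 2. Of the members, 7 have over 10 kb of exon, and the median change of the 1595 tested genes of that length lay between -0.0512 and -0.0101 in the same 20 comparisons; the part of transcript length in the mucin values was not tested.

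**Figure D2:**
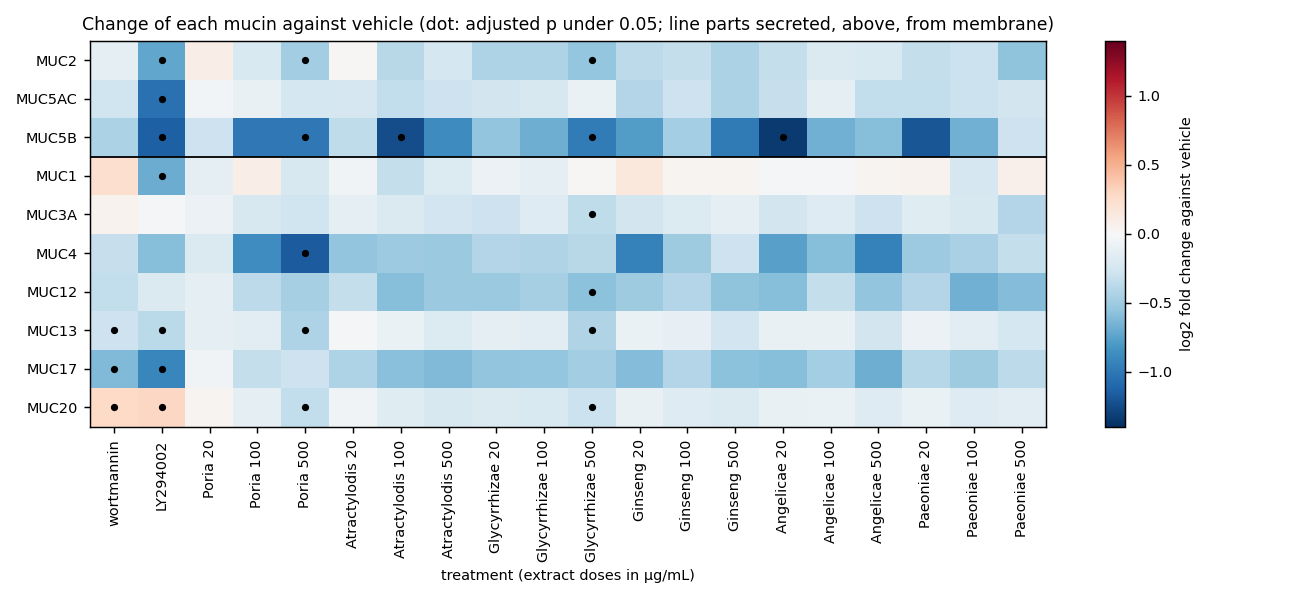
Log2 fold change of each mucin (rows, secreted above the line) against vehicle for both inhibitors and the 18 extract groups; a dot marks an adjusted p under 0.05. Blue (lower than vehicle) fills most cells, and the 2 cells called higher are MUC20 under wortmannin and LY294002.

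LY294002 lowered all 3 secreted mucins. MUC5AC had 109, 91.8 and 81.2 CPM in the LY294002 libraries, against 168, 187 and 224.5 CPM in vehicle. The groups did not overlap, and the change was -1.04 ± 0.12 on the log2 scale (adjusted p = 4.56e-10). MUC2 had 14.5, 11.2 and 12.6 CPM under LY294002, against 18.01, 19.6 and 25.8 CPM in vehicle. It was lower in each LY294002 library than in any vehicle library, with a change of -0.72 ± 0.13 (adjusted p = 1.15e-05). MUC5B, at 0.428, 0.447 and 0.750 CPM against 0.982, 1.36 and 1.28 CPM in vehicle, fell by 1.15 ± 0.27 (adjusted p = 0.000523).

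Of the membrane mucins, 3 fell and 1 rose under LY294002. MUC17 had 9.14, 7.59 and 5.175 CPM, against 11.99, 14.1 and 14.99 CPM in vehicle, a change of -0.91 ± 0.18 (adjusted p = 8.59e-05). MUC13 had 126.5, 129 and 107 CPM, against 153, 164.5 and 153 CPM in vehicle (-0.38 ± 0.07, adjusted p = 1.77e-05). Every LY294002 library was below every vehicle library for both genes. MUC1 had 0.700, 0.744 and 0.6375 CPM, against 0.982, 1.23 and 1.15 CPM in vehicle, a change of -0.69 ± 0.18 (adjusted p = 0.018). The MUC1 call was lost without vehicle library 2 (-0.61, adjusted p = 0.08) or LY294002 library 3 (-0.63, adjusted p = 0.0655), and with no filter on low counts (-0.70, adjusted p = 0.0784).

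MUC20 rose under LY294002, with 89.0, 87.1 and 83.4 CPM against 65.8, 70.9 and 75.9 CPM in vehicle (0.29 ± 0.08, adjusted p = 0.00181), and the groups did not overlap. MUC20-OT1 rose as well (0.32 ± 0.07, adjusted p = 0.000267), while MUC20P1 changed by -0.13 ± 0.13 (adjusted p = 0.471). The sum of MUC20 and MUC20P1, which share reads, was 118 ± 7.08 CPM under LY294002 and 105 ± 10.55 CPM in vehicle (SD, n = 3 each), and its lowest and highest libraries overlapped (109.6 to 122 CPM against 96.2 to 117 CPM). The part of the division of reads between these genes in the MUC20 change was not tested. The remaining members did not pass the test: MUC4 changed by -0.60 ± 0.31 (adjusted p = 0.12), MUC12 by -0.20 ± 0.18 (adjusted p = 0.393) and MUC3A by -0.03 ± 0.10 (adjusted p = 0.858). MUC12 spread widely under LY294002, between 6.56 CPM in library 3 and 13.7 CPM in library 1, and without library 1 it passed the test (-0.49, adjusted p = 0.0341). In all, 7 of 10 mucins changed, beside 39.2% of all tested genes, with 6 lower beside 20.5% and 1 higher beside 18.7%.

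Wortmannin, the other PI3K inhibitor, changed 3 of 10 mucins, all of them membrane mucins, beside 13.7% of all tested genes. MUC13 had 122, 137 and 125 CPM under wortmannin, against 153, 164.5 and 153 CPM in vehicle (-0.29 ± 0.07, adjusted p = 0.00238). MUC17 had 7.96, 9.72 and 8.97 CPM, against 11.99, 14.1 and 14.99 CPM in vehicle (-0.62 ± 0.18, adjusted p = 0.0151). MUC20 was higher, at 79.8, 80.9 and 97.8 CPM against 65.8, 70.9 and 75.9 CPM in vehicle (0.28 ± 0.08, adjusted p = 0.00777). None of these 3 genes overlapped between the groups. The MUC17 call was lost without vehicle library 2 (-0.60, adjusted p = 0.052), vehicle library 3 (-0.55, adjusted p = 0.0704) or wortmannin library 1 (-0.55, adjusted p = 0.0865). That of MUC20 was lost without vehicle library 1 (0.23, adjusted p = 0.0701) or wortmannin library 3 (0.18, adjusted p = 0.125). Under wortmannin MUC20P1 changed by 0.00 ± 0.13 (adjusted p = 0.994) and MUC20-OT1 by 0.01 ± 0.07 (adjusted p = 0.941). Among the secreted mucins MUC5AC changed by -0.28 ± 0.11 (adjusted p = 0.0964), MUC5B by -0.44 ± 0.25 (adjusted p = 0.268) and MUC2 by -0.12 ± 0.13 (adjusted p = 0.597), so no secreted mucin passed the test with all libraries. Without vehicle library 1, MUC5AC passed it (-0.37, adjusted p = 0.0449).

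Set directly against LY294002, wortmannin left 3 mucins higher, beside 22.2% of all genes called in either direction and 12.7% called higher. MUC5AC, at 146, 160 and 172 CPM under wortmannin against 109, 91.8 and 81.2 CPM under LY294002, differed by 0.76 ± 0.12 (adjusted p = 1.79e-06). MUC2, at 17.1, 18.1 and 23.3 CPM against 14.5, 11.2 and 12.6 CPM under LY294002, differed by 0.60 ± 0.13 (adjusted p = 0.00043). MUC1, at 1.1, 1.36 and 1.53 CPM against 0.700, 0.744 and 0.6375 CPM under LY294002, differed by 0.92 ± 0.17 (adjusted p = 0.00119). The libraries of the inhibitors did not overlap for any of these 3 genes, and each call held with any 1 library left out. MUC5B differed by 0.71 ± 0.28 (adjusted p = 0.0613), and passed the test without LY294002 library 3 (1.01, adjusted p = 0.0212). For MUC13, MUC17 and MUC20, which had changed in the same direction under both inhibitors, the difference between them was 0.09 ± 0.07, 0.29 ± 0.19 and -0.01 ± 0.07 on the log2 scale, with adjusted p-values of 0.421, 0.314 and 0.963.

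**Figure D3:**
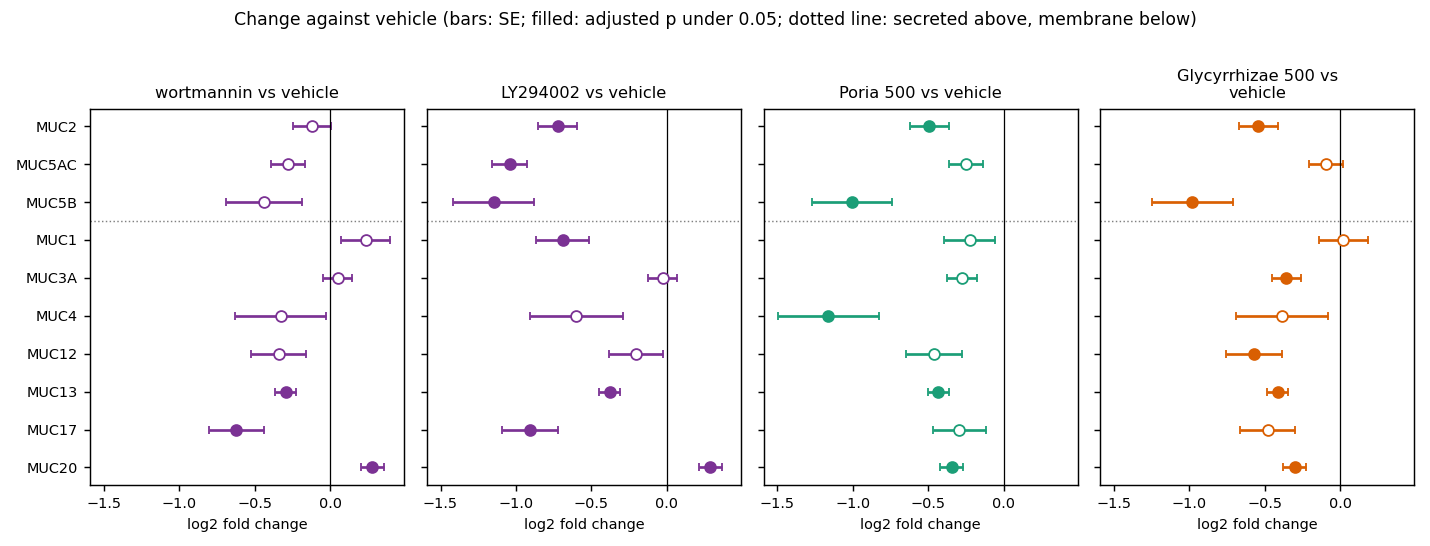
Log2 fold change of each mucin against vehicle, with bars of 1 SE, for wortmannin, LY294002, Poria 500 and Glycyrrhizae 500; filled points have an adjusted p under 0.05 and the dotted line parts secreted mucins (above) from membrane mucins (below). MUC13 is lower in all 4 panels (-0.29 to -0.43), and MUC20 is higher under both inhibitors and lower under both extracts.

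Poria at 500 µg/mL lowered 5 of 10 mucins against vehicle, beside 7.49% of all tested genes in either direction and 2.89% lower. MUC13 had 120, 118 and 111 CPM in Poria 500, against 153, 164.5 and 153 CPM in vehicle (-0.43 ± 0.07, adjusted p = 3.62e-05). MUC20 had 51.75, 58.0 and 57.9 CPM, against 65.8, 70.9 and 75.9 CPM in vehicle (-0.34 ± 0.08, adjusted p = 0.00269), and MUC20P1 fell too (-0.47 ± 0.14, adjusted p = 0.0221). MUC2 had 15.3, 13.8 and 15.8 CPM, against 18.01, 19.6 and 25.8 CPM in vehicle (-0.49 ± 0.13, adjusted p = 0.0116). The groups were separate for these 3 members, and the calls of MUC13 and MUC20 held with any 1 library left out. The change of MUC2 was -0.33 without vehicle library 3 (adjusted p = 0.202) and -0.44 without Poria 500 library 2 (adjusted p = 0.0562).

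The other calls in Poria 500 concerned rare transcripts. MUC5B had 0.842, 0.345 and 0.579 CPM, against 0.982, 1.36 and 1.28 CPM in vehicle (-1.003 ± 0.27, adjusted p = 0.0131). MUC4 had 0.386, 0.259 and 0.289 CPM, against 0.598, 0.740 and 0.796 CPM in vehicle (-1.16 ± 0.33, adjusted p = 0.0225). The MUC5B call was lost without vehicle library 2, vehicle library 3 or Poria 500 library 2, with changes between -0.96 and -0.75 and adjusted p-values between 0.0616 and 0.0977; 3 members were called without vehicle library 2, 2 without vehicle library 3 and 2 without Poria 500 library 2. The MUC4 call was lost without vehicle library 2 or 3 or Poria 500 library 2 or 3, with changes between -1.13 and -1.05 and adjusted p-values between 0.0695 and 0.103, and with no filter on low counts (-1.16, adjusted p = 0.0771). MUC5AC was at 158, 163 and 166.5 CPM, just below the lowest vehicle library (-0.25 ± 0.11, adjusted p = 0.185). MUC3A (-0.27 ± 0.10), MUC12 (-0.46 ± 0.18), MUC17 (-0.29 ± 0.18) and MUC1 (-0.23 ± 0.17) did not pass the test, with adjusted p-values between 0.0766 and 0.636. Without vehicle library 1, MUC3A passed it (-0.34, adjusted p = 0.0429).

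Within the Poria libraries, which share 1 code number, 3 of these mucins were also lower at 500 than at 20 µg/mL, beside 5.51% of all tested genes in either direction. MUC2 averaged 21.1 CPM in vehicle, 22.5 CPM at 20 µg/mL, 18.1 CPM at 100 µg/mL and 15.0 CPM at 500 µg/mL, and the change of 500 against 20 µg/mL was -0.58 ± 0.13 (adjusted p = 0.00238). MUC13 averaged 157, 143, 141 and 116 CPM in the same order (-0.30 ± 0.07 for 500 against 20 µg/mL, adjusted p = 0.00554). MUC20 averaged 70.9, 72.9, 65.2 and 55.9 CPM in that order (-0.38 ± 0.08, adjusted p = 0.000864). No library of Poria 500 reached any library of Poria 20 for these 3 members, and the calls held with any 1 library left out. Group means fell stepwise from the lowest to the highest Poria dose for 8 of the 10 members, the exceptions being MUC1 and MUC17, and for 23.1% of all tested genes. They did so for 4 members with Atractylodis, 3 with Glycyrrhizae, 3 with Ginseng, 1 with Angelicae and 2 with Paeoniae, beside 19.1%, 25.0%, 17.3%, 18.4% and 16.4% of all tested genes. MUC4 (-0.96 ± 0.34, adjusted p = 0.0845) and MUC5B (-0.71 ± 0.27, adjusted p = 0.119) had the largest estimates, and MUC5B passed the test without Poria 500 library 1 (-1.08, adjusted p = 0.0368).

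Glycyrrhizae at 500 µg/mL lowered 6 of 10 mucins against vehicle, beside 6.91% of all tested genes in either direction and 3.26% lower. MUC13 had 128, 112 and 113 CPM, against 153, 164.5 and 153 CPM in vehicle (-0.42 ± 0.07, adjusted p = 8.65e-05), and this call held with any 1 library left out. MUC2 had 15.7, 13.5 and 14.3 CPM, against 18.01, 19.6 and 25.8 CPM in vehicle (-0.54 ± 0.13, adjusted p = 0.00505). MUC20 had 53.9, 55.8 and 62.8 CPM, against 65.8, 70.9 and 75.9 CPM in vehicle (-0.30 ± 0.08, adjusted p = 0.00928). The libraries of the groups were separate for all 3, and MUC20P1 was lower too (-0.57 ± 0.14, adjusted p = 0.00504).

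MUC3A and MUC12, adjacent on chromosome 7, were also lower in Glycyrrhizae 500. MUC3A had 21.1, 19.6 and 22.9 CPM, against 24.6, 26.4 and 30.5 CPM in vehicle (-0.36 ± 0.10, adjusted p = 0.0184). MUC12 had 8.80, 7.87 and 6.55 CPM, against 9.86, 11.6 and 13.1 CPM in vehicle (-0.57 ± 0.18, adjusted p = 0.0492). MUC5B had 0.674, 0.353 and 0.813 CPM, against 0.982, 1.36 and 1.28 CPM in vehicle (-0.98 ± 0.27, adjusted p = 0.016). Vehicle library 3 mattered for 5 of the 6 calls: without it, MUC2 (-0.38, adjusted p = 0.128), MUC3A (-0.27, adjusted p = 0.192), MUC12 (-0.47, adjusted p = 0.238), MUC20 (-0.25, adjusted p = 0.0953) and MUC5B (-0.94, adjusted p = 0.07) no longer passed the test, and 1 call remained, that of MUC13. The MUC3A, MUC20, MUC5B and MUC12 calls were also lost without Glycyrrhizae 500 library 2 (2 mucins were then called), those of MUC3A, MUC20 and MUC12 without library 1 (3 were then called), and that of MUC12 without library 3. The MUC12 call was also lost without vehicle library 2 (-0.56, adjusted p = 0.114), and that of MUC5B without vehicle library 2 (-0.89, adjusted p = 0.0796) and with no filter on low counts (-0.97, adjusted p = 0.0534). MUC5AC, the most abundant secreted mucin, kept 175, 197 and 170.0 CPM, overlapping vehicle at 168, 187 and 224.5 CPM (-0.10 ± 0.11, adjusted p = 0.688). MUC17 (-0.48 ± 0.18, adjusted p = 0.0956), MUC4 (-0.39 ± 0.30, adjusted p = 0.515) and MUC1 (0.02 ± 0.16, adjusted p = 0.977) did not pass.

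Within the Glycyrrhizae libraries MUC13 was the 1 member called between doses. It averaged 157 CPM in vehicle, 144 CPM at 20 µg/mL, 142 CPM at 100 µg/mL and 118 CPM at 500 µg/mL, and 500 differed from 20 µg/mL by -0.29 ± 0.07 (adjusted p = 0.0106). That was 1 of 10 members, beside 3.85% of all tested genes. The call was lost without Glycyrrhizae 20 library 1 (-0.24, adjusted p = 0.0741), Glycyrrhizae 500 library 2 (-0.25, adjusted p = 0.0669) or Glycyrrhizae 500 library 3 (-0.26, adjusted p = 0.0794). MUC2 was already at 15.6 CPM at 20 µg/mL and 15.7 CPM at 100 µg/mL, close to its 14.5 CPM at 500 µg/mL (-0.11 ± 0.13 for 500 against 20 µg/mL, adjusted p = 0.744). MUC20 (-0.10 ± 0.08, adjusted p = 0.549), MUC3A (-0.06 ± 0.10, adjusted p = 0.819) and MUC12 (-0.05 ± 0.19, adjusted p = 0.937) likewise gave no call within these libraries.

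**Figure D4:**
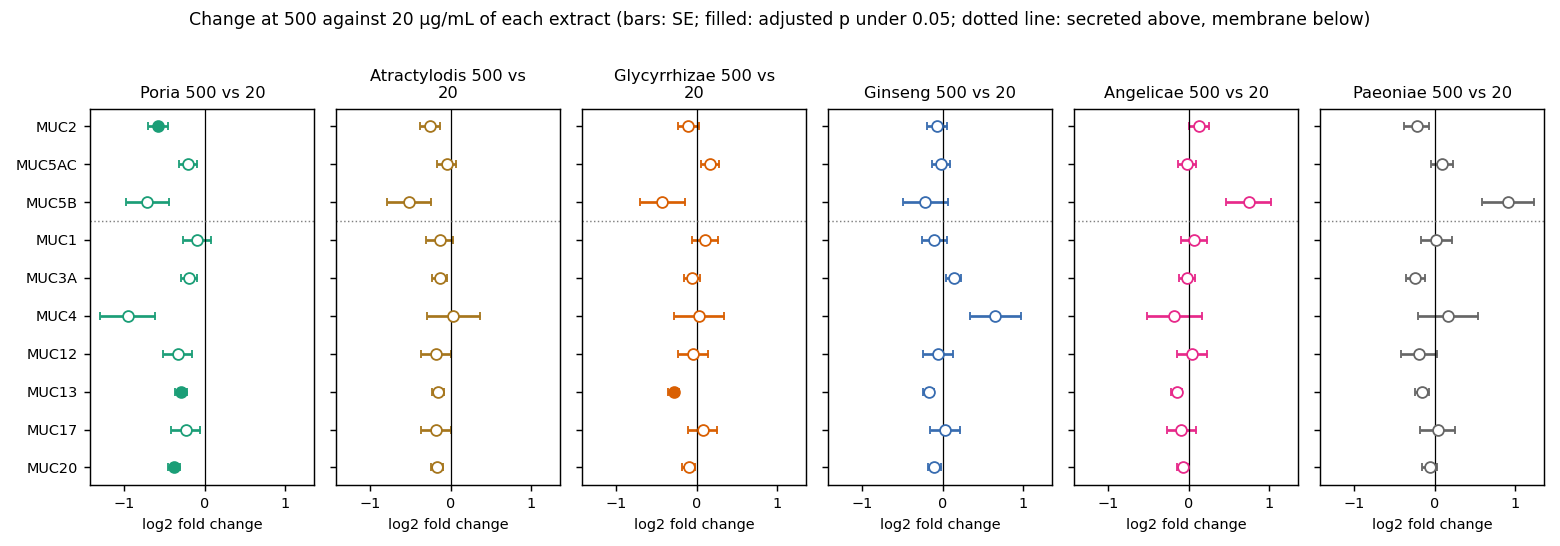
Log2 fold change of each mucin at 500 against 20 µg/mL of the same extract, with bars of 1 SE; filled points have an adjusted p under 0.05. MUC2, MUC13 and MUC20 are lower at the high dose of Poria and MUC13 at that of Glycyrrhizae, and no point is filled in the panels of the other 4 extracts.

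The other extracts gave few mucin calls. At 500 µg/mL, edgeR called no member for Atractylodis (0.25% of all tested genes called), Ginseng (0.352%), Angelicae (0.161%) and Paeoniae (0.161%), although 7, 7, 8 and 5 members had an unadjusted p under 0.05, and DESeq2 called 0, 3, 1 and 1 of them. Of all tested genes, 14.7%, 15.6%, 16.0% and 11.3% had an unadjusted p under 0.05 in these 4 comparisons. Over the 12 comparisons of 20 and 100 µg/mL with vehicle, edgeR made 2 calls, both of MUC5B, in Atractylodis 100 (0.364% of all tested genes called) and Angelicae 20 (0.173%). At 20 µg/mL the share of all tested genes called was 0% for Poria, 0.137% for Atractylodis, 0.37% for Glycyrrhizae, 0% for Ginseng and 0% for Paeoniae. At 100 µg/mL it was 0.0417% for Poria, 0.34% for Glycyrrhizae, 0% for Ginseng, 0.00596% for Angelicae and 0.0477% for Paeoniae. MUC5B had 0.415, 0.596 and 0.512 CPM in Atractylodis 100 (-1.24 ± 0.28, adjusted p = 0.0193) and 0.415, 0.579 and 0.427 CPM in Angelicae 20 (-1.34 ± 0.27, adjusted p = 0.0366), against 0.982, 1.36 and 1.28 CPM in vehicle. Each of these calls was lost without vehicle library 2 or 3 or any 1 of its own extract libraries, with adjusted p-values between 0.0548 and 0.334. Between 500 and 20 µg/mL edgeR and DESeq2 called no member for Atractylodis, Ginseng, Angelicae or Paeoniae, with 3, 2, 2 and 2 members at an unadjusted p under 0.05 (5.11%, 4.01%, 2.98% and 3.36% of all tested genes), beside 0%, 0%, 0.0179% and 0.0358% of all tested genes called by edgeR.

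Ginseng 500 was the comparison that most depended on 1 library. MUC5AC had 176 CPM in library 1, against 122 and 130 CPM in libraries 2 and 3, and MUC17 had 11.6 CPM, against 7.70 and 8.14 CPM. MUC12 (10.5 CPM against 6.20 and 6.57 CPM) and MUC2 (19.0 CPM against 13.1 and 14.2 CPM) were likewise highest in library 1. Library 1 was also the highest in Ginseng 20 and Ginseng 100 for MUC5AC (168 and 184 CPM) and MUC2 (17.9 and 19.5 CPM). With all 3 libraries of Ginseng 500, MUC5AC changed by -0.44 ± 0.11 against vehicle (adjusted p = 0.0616) and MUC13 by -0.27 ± 0.07 (adjusted p = 0.0585). Without library 1, 6 members passed the test: MUC5AC (-0.62, adjusted p = 0.00739), MUC2 (-0.63, adjusted p = 0.0175), MUC12 (-0.85, adjusted p = 0.0248), MUC13 (-0.33, adjusted p = 0.0248), MUC5B (-1.27, adjusted p = 0.0295) and MUC17 (-0.79, adjusted p = 0.0355). Without vehicle library 1, 3 members passed it for Ginseng 500, 1 for Angelicae 500 and 1 for Paeoniae 500. The share of all tested genes called in these fits with 1 library left out is not given here.

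Differences between extracts in the step from 20 to 500 µg/mL were tested within each code number. No member passed for Poria minus Atractylodis, Glycyrrhizae minus Ginseng or Angelicae minus Paeoniae with edgeR or DESeq2, and 1, 0 and 0 members had an unadjusted p under 0.05 (8.09%, 6.24% and 2.45% of all tested genes). Of all tested genes, 0.394%, 0.0477% and 0% were called in these comparisons. The mucin changes of Poria and Glycyrrhizae are thus not shown to differ from those of the extract with which each shares a code number.

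Secreted and membrane mucins were also summed in each library. MUC5AC made up 85.8% to 93.4% of the secreted sum in every library, and MUC13 with MUC20 made up 79.1% to 84.7% of the membrane sum, so the sums mainly describe these 3 genes. Secreted mucins summed to 107 ± 15.1 CPM under LY294002, 180 ± 16.3 CPM under wortmannin and 216 ± 32.7 CPM in vehicle (SD, n = 3 each). Membrane mucins summed to 252 ± 21.9 CPM under LY294002, 262 ± 15.7 CPM under wortmannin and 282 ± 13.0 CPM in vehicle. The secreted share of the total was therefore 29.8 ± 1.74% under LY294002, with libraries between 28.3% and 31.7%, against 40.6 ± 0.901% under wortmannin and 43.2 ± 2.86% in vehicle. No library of any other group had a share below 35.6%.

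The highest doses of Poria and Glycyrrhizae had the lowest membrane sums of all groups. Membrane mucins summed to 216 ± 3.28 CPM in Poria 500 and 216 ± 9.43 CPM in Glycyrrhizae 500, against 282 ± 13.0 CPM in vehicle (SD, n = 3 each), and the groups did not overlap. Secreted mucins summed to 178 ± 4.43 CPM in Poria 500, below each vehicle library, and to 196 ± 13.5 CPM in Glycyrrhizae 500, which overlapped the 216 ± 32.7 CPM of vehicle. The secreted share was 45.3 ± 0.830% in Poria 500 and 47.6 ± 2.61% in Glycyrrhizae 500, against 43.2 ± 2.86% in vehicle. Over the other 16 extract groups the mean share lay between 38.7% (Ginseng 20) and 44.2% (Poria 100). With levels taken per kilobase of exon, the order was kept at its ends, at 9.89% under LY294002, 18.6% in Glycyrrhizae 500 and 16.25% in vehicle.

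**Figure D5:**
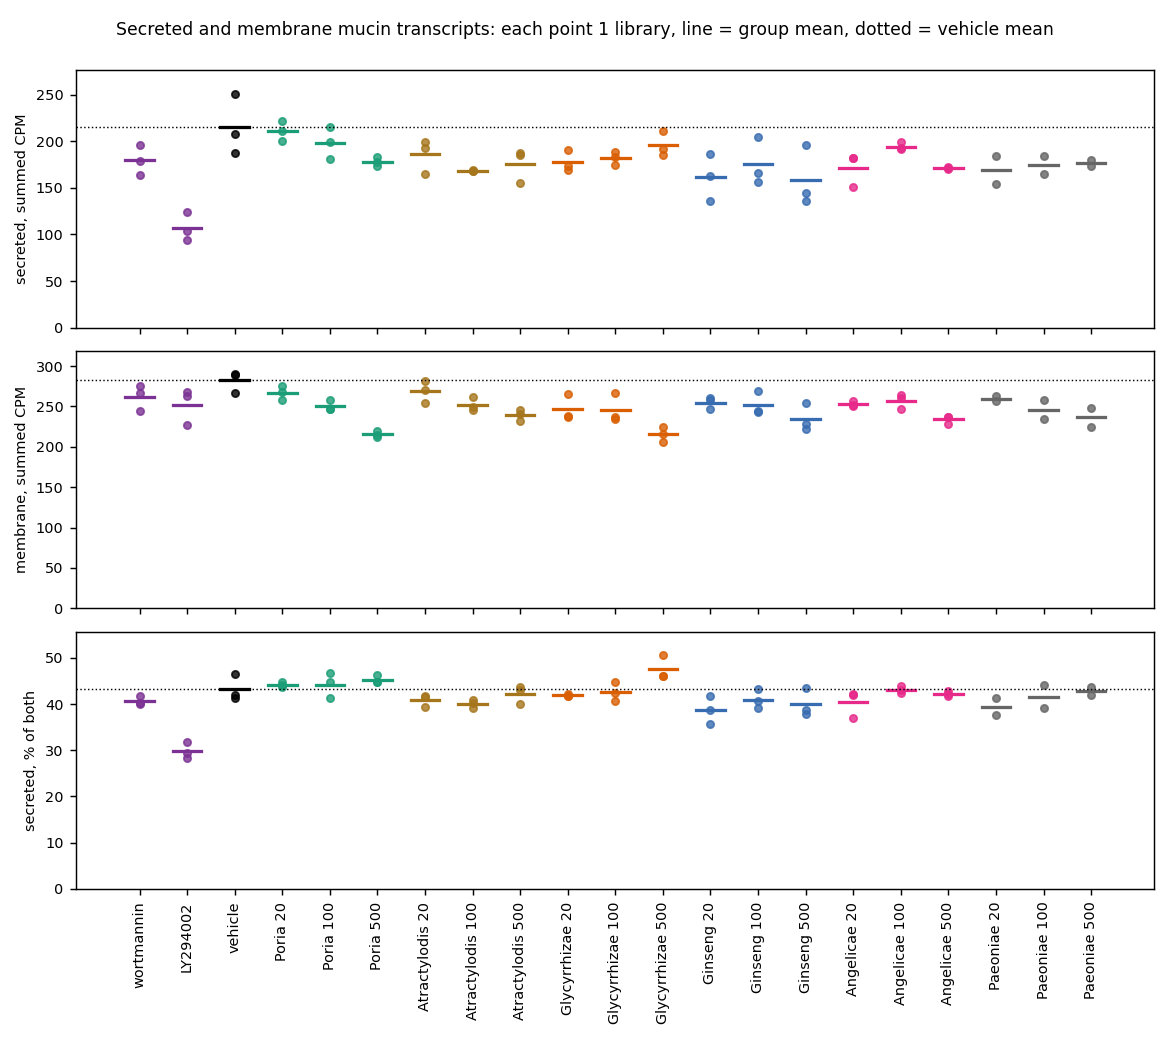
Summed TMM-scaled CPM of the 3 secreted mucins (top) and the 7 membrane mucins (middle), and the secreted share of both in percent (bottom), for every library (points) with group means (lines) and the vehicle mean (dotted). LY294002 stands apart in the secreted sum and share, while Poria 500 and Glycyrrhizae 500 have the lowest membrane sums.

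Goblet-cell and mucus genes, 25 listed of which 21 were tested, gave calls in both directions under the inhibitors. LY294002 lowered 6 and raised 4, beside 20.5% of all tested genes called lower and 18.7% called higher. The 4 raised were REG4 (0.42 ± 0.07, adjusted p = 1.94e-06), TSPAN1 (0.415 ± 0.05, adjusted p = 8.84e-09), SYTL2 (0.27 ± 0.10, adjusted p = 0.0202) and CREB3L1 (0.25 ± 0.06, adjusted p = 0.000471). The largest changes were those of SPINK4, a goblet-cell protease inhibitor (-1.78 ± 0.35, adjusted p = 5.70e-05), LYPD8, which keeps bacteria from the colonic surface (-1.73 ± 0.40, adjusted p = 0.000452), AGR3 (-1.25 ± 0.20, adjusted p = 2.29e-06) and AGR2, an endoplasmic reticulum protein needed for mucin folding (-0.61 ± 0.05, adjusted p = 8.27e-13). Wortmannin, with 13.7% of all tested genes called, raised 2, TSPAN1 (0.35 ± 0.05, adjusted p = 2.20e-06) and the secretory-pathway factor CREB3L1 (0.24 ± 0.06, adjusted p = 0.00281), and lowered 2, the goblet-cell factor SPDEF (-0.28 ± 0.09, adjusted p = 0.021) and FOXA1 (-0.20 ± 0.07, adjusted p = 0.0371). The list median was -0.14 under LY294002 and 0.06 under wortmannin, beside 0.01 and 0.00 for all genes. SPINK4 and LYPD8 averaged only 0.669 and 0.344 CPM over the 60 libraries, so their changes here and in the extracts rest on few counts.

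In the extracts all calls of the goblet list against vehicle were downward at 500 µg/mL of Poria (8 of 21) and Glycyrrhizae (9 of 21), beside 2.89% and 3.26% of all tested genes called lower, with list medians of -0.34 and -0.36, beside -0.01 and 0.00 for all genes. In Poria 500 the largest were LYPD8 (-1.47 ± 0.39, adjusted p = 0.0128), REG4, a lectin of secretory cells (-0.67 ± 0.07, adjusted p = 3.07e-09), FCGBP, a protein of the mucus gel (-0.59 ± 0.13, adjusted p = 0.00189), and CREB3L1 (-0.58 ± 0.06, adjusted p = 5.23e-10). In Glycyrrhizae 500 they were SPINK4 (-1.57 ± 0.35, adjusted p = 0.00238), REG4 (-0.96 ± 0.07, adjusted p = 5.69e-13), the secretory-lineage factor ATOH1 (-0.92 ± 0.25, adjusted p = 0.0154) and CREB3L1 (-0.63 ± 0.06, adjusted p = 1.68e-10). Against the same vehicle libraries, REG4 and CREB3L1 were also called lower in Atractylodis 500 (-0.34 ± 0.07 and -0.24 ± 0.06). They were called lower in Paeoniae 500 as well (-0.47 ± 0.08 and -0.33 ± 0.06). CREB3L1 was called lower in Ginseng 500 (-0.28 ± 0.06), and no gene of the list was called in Angelicae 500. Of all tested genes, 0.25%, 0.161% and 0.352% were called in Atractylodis 500, Paeoniae 500 and Ginseng 500. Some lower doses, Glycyrrhizae 20 among them, gave calls of REG4 or CREB3L1 too. The fall of these genes against vehicle was therefore not particular to Poria and Glycyrrhizae. At 500 against 20 µg/mL, 5 genes of the list were lower with Poria and 9 with Glycyrrhizae, and 0 were higher, beside 5.51% and 3.85% of all tested genes called in either direction. Unlike any mucin, REG4 and CREB3L1, named here after their values were seen, passed the test of the difference in dose effect for Poria minus Atractylodis (-0.48 ± 0.10 and -0.40 ± 0.08, adjusted p = 0.0105 and 0.00751), and REG4 passed it for Glycyrrhizae minus Ginseng (-0.62 ± 0.10, adjusted p = 0.00114).

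Enzymes and transporters of mucin-type O-glycosylation, 36 listed of which 34 were tested, gave calls in both directions. LY294002 lowered 10 and raised 6, beside 39.2% of all tested genes called, with the largest changes in the sulfotransferases CHST5 (-1.11 ± 0.40, adjusted p = 0.0222) and CHST4 (-0.91 ± 0.21, adjusted p = 0.000427), B3GNT7 (-1.02 ± 0.37, adjusted p = 0.0255) and GALNT8 (-0.79 ± 0.21, adjusted p = 0.00173). Wortmannin lowered 3 and raised 3 (13.7% of all tested genes called), with GALNT8 at -0.64 ± 0.21 (adjusted p = 0.0279) and the sialyltransferase ST6GAL1 at 0.62 ± 0.16 (adjusted p = 0.00504). Poria 500 raised 4 and lowered 0 (7.49% of all tested genes called), among them GCNT3, which builds branched O-glycans of intestinal mucins (0.29 ± 0.05, adjusted p = 0.00015). Glycyrrhizae 500 lowered 3, including the goblet-cell sialyltransferase ST6GALNAC1 (-0.91 ± 0.23, adjusted p = 0.00946), and raised 1, ST6GALNAC4 (0.29 ± 0.05, adjusted p = 5.25e-05), beside 6.91% of all tested genes called. The list medians lay between -0.08 and 0.01 in these 4 comparisons. CHST5 and B3GNT7 averaged only 0.685 and 0.481 CPM over the 60 libraries, so their changes rest on few counts.

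Of 15 further mucins and mucin-like genes, 7 were tested. MUC16, a membrane mucin known as the CA125 antigen, had 0.524, 0.862 and 0.6845 CPM in Glycyrrhizae 500, against 2.01, 1.64 and 1.90 CPM in vehicle. The groups were separate, and the change was -1.42 ± 0.26 (adjusted p = 0.000253). It was also lower in Poria 500 (-0.90 ± 0.24, adjusted p = 0.0158). MUC16 was the list's 1 call in each of these comparisons, beside 6.91% of all tested genes called in Glycyrrhizae 500 and 7.49% in Poria 500. MUCL3, a mucin-like membrane protein, was lower under wortmannin (-0.60 ± 0.19, adjusted p = 0.0303) and LY294002 (-0.49 ± 0.19, adjusted p = 0.0359). CD164, of the same list, was higher under LY294002 (0.18 ± 0.04, adjusted p = 0.000593). Of all tested genes, 13.7% were called under wortmannin and 39.2% under LY294002.

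Of 21 factors reported to bind mucin promoters, 19 were tested. LY294002 raised 3 and lowered 5, beside 39.2% of all tested genes called; the largest change was that of CDX2, whose type of motif stands in the MUC2 and MUC17 windows (0.74 ± 0.12, adjusted p = 1.17e-06), while both mucins were lower. Glycyrrhizae 500 lowered 1, HNF4A (-0.30 ± 0.04, adjusted p = 1.25e-05), and Poria 500 lowered 3, HNF4A among them (-0.14 ± 0.04, adjusted p = 0.0473); the HNF4 type of motif stands in the window of MUC13, which was lower in both. MUC13 was also lower under LY294002 and wortmannin, where HNF4A was not called. Of all tested genes, 6.91% were called in Glycyrrhizae 500 and 7.49% in Poria 500. Wortmannin lowered 1, KLF5 (-0.30 ± 0.07, adjusted p = 0.00256), beside 13.7% of all tested genes. Any link between these factors and the mucins was not tested.

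Across the 21 group means of log2 CPM pairs of mucins of at least 5 CPM ranged widely in likeness. Pearson's r, given as a description over groups that were scaled together, was 0.781 between MUC5AC and MUC17, 0.775 between MUC3A and MUC20, 0.733 between MUC3A and MUC12 and 0.609 between MUC2 and MUC5AC. MUC5AC and MUC20 had r = -0.399 over the 21 groups and 0.173 with LY294002 left out. Over the 20 groups without LY294002 all 21 pairs had a positive r, between 0.0623 (MUC5AC and MUC13) and 0.778 (MUC2 and MUC12), and that of MUC5AC with MUC12 was 0.694, against 0.17 over all groups. Among 10655 genes of at least 5 CPM, the 3 most like each mucin over the 21 groups were ETV6, ENG and ARID1B for MUC2 (r of 0.873, 0.847 and 0.844), and SAP130, RBM33 and HUWE1 for MUC5AC (0.937, 0.934 and 0.932). Those most like the membrane mucins were PIK3R2, HOXA3 and ZHX2 for MUC3A (0.909, 0.897 and 0.867), NAPA, FOXP4 and NFIX for MUC12 (0.824, 0.82 and 0.82) and LMO4, POU2AF3 and FAM131B for MUC13 (0.912, 0.845 and 0.842). They were POM121, SETD1A and BCL9L for MUC17 (0.907, 0.897 and 0.893) and ERGIC1, MAGED1 and COPG1 for MUC20 (0.975, 0.966 and 0.962).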

How the data were processed

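Per the labels' protocols, 1 µg of total RNA of each HT29 sample went into a directional mRNA library read as 100 bp pairs. Per the submitters' processing notes, FastQC 0.11.9, Trim Galore 0.6.5, STAR 2.7.3a, RSEM 1.3.3 and the build GRCh38 (hg38) were used; neither an annotation release nor a strand option for counting is named there. Values in the deposited file are raw expected counts for each Ensembl gene; 213 further columns were not used. Symbols, positions and exon lengths came from GENCODE 29.

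Counts were rounded, filtered with filterByExpr, scaled by TMM and fitted in edgeR 4.0.16 (R 4.3.3) with a mean per group over all 60 libraries (39 residual degrees of freedom), tested in 30 comparisons and checked on simulated data. All 10 members are reported. Of each gene list, at most 4 called genes of largest change per comparison with vehicle were named. The 4 goblet-list genes that LY294002 raised are given besides. For each mucin of at least 5 CPM, the 3 genes with the highest correlation of group means were named. Members and lists were chosen with earlier results of these data known. Alternatives were DESeq2 1.42.0, no filter, a replicate block and leaving out each library.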

Additional observations from a re-analysis of the deposited data

How the results depend on the processing

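Of the 30 mucin calls over the 30 comparisons, 16 held in every fit that left out 1 library, 27 held with no filter on low counts and 30 with a replicate block; with DESeq2, 26 held and the other 4 (MUC5B in 3 comparisons and MUC4 in Poria 500) had no adjusted p. None changed direction. With no filter, 5 mucins were called for wortmannin, 6 for Atractylodis 500, 6 for Ginseng 500, 5 for Angelicae 500, 5 for Paeoniae 500 and 40 over the lower doses (2 in the edgeR fit with the filter), 95 calls in all; the cause was not tested. Over all tested genes, the replicate numbers did not pair the libraries. In 0 of the 23 comparisons with 3 pairs did every pair deviate together (r over 0.1). In 2 of the 23, every library correlated best with its own number. MUC5AC rose from library 1 to 3 in vehicle (168, 187 and 224.5 CPM) and wortmannin (146, 160 and 172 CPM). It fell in that order in LY294002 (109, 91.8 and 81.2 CPM). With the replicate block, 7 mucins were called for Glycyrrhizae 500, MUC17 in addition (-0.50, adjusted p = 0.0221), 1 mucin was called for Atractylodis 500, 3 for Ginseng 500, 2 for Angelicae 500, 1 for Paeoniae 500 and 7 over the lower doses, 43 calls in all. DESeq2 called 3 for Poria 500, 3 for Ginseng 500, 1 for Angelicae 500, 1 for Paeoniae 500 and 4 over the lower doses. The share of all genes called with no filter, a replicate block, DESeq2 or a library left out is not given here. Counts of mucins from these fits therefore do not set the mucins apart from other genes. Leaving out 1 library at a time gave 2 to 6 calls for Poria 500, 1 to 6 for Glycyrrhizae 500, 0 to 6 for Ginseng 500, 0 to 1 for Angelicae 500 and for Paeoniae 500, 0 to 1 for Glycyrrhizae 500 against 20 µg/mL and 0 to 4 over the lower doses; where this left 1 Paeoniae library, it was assumed to vary like the other groups. Of the secreted and membrane sums, 1 of 204 recomputed means moved by more than 1 SD: the membrane sum of Poria 500 was 211 CPM by plain library totals, against 216 CPM. Depth limits MUC5B, MUC1 and MUC4 most, with fewer than 50 counts per library.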
